A study of Mus musculus with 54 samples.

Results

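Round spermatids, the haploid cells that leave meiosis and go on to build the sperm head and tail, were compared between mice with 1 intact Ctcf allele (CTCF HET, Ctcf+/- Boris+/+) and wild-type mice (WT, Ctcf+/+ Boris+/+). The members are 6 poly(A) RNA-seq libraries of 54 samples in the series, 3 of CTCF HET and 3 of WT, chosen by the genotype and cell type in their titles. All mice were C57BL/6 males of 3 months, and each germ cell preparation pooled 4 mice, so a library describes a pool rather than an animal. The cells were separated by centrifugal elutriation and then sorted on DNA content after staining with a DNA dye, with DAPI-positive dead cells left out. The study put the purity of sorted round spermatids at 93.7 ± 2.3%. It set the CTCF heterozygotes beside mice lacking BORIS (BORIS KO, Ctcf+/+ Boris-/-) and mice with both changes (the compound mutant, CM, Ctcf+/- Boris-/-), in sorted round spermatids, sorted spermatocytes and germ cells of whole testis. The CTCF HET mice carried the Ctcf knockout allele in every cell from conception, so the round spermatids descended from germ cells and grew beside Sertoli cells of the same genotype.

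CTCF is a zinc finger protein that binds an asymmetric DNA motif, stops cohesin as it extrudes chromatin and so sets the ends of chromosome loops. BORIS, encoded by Ctcfl, is its germline paralog and binds the same motif. Each round spermatid of a heterozygote inherits either the intact or the mutated allele, while sister cells stay joined by cytoplasmic bridges through which transcripts pass. Round spermatids transcribe the genes of the acrosome, the flagellum and the nuclear condensation that follows.

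The libraries held 47740650 to 98545423 counts over 23284 genes, and a count was found for 17504 to 17985 genes in WT and for 18511 to 18752 genes in CTCF HET. After a filter on low counts 15238 genes were tested. WT replicate 1 stood apart from the other two WT libraries. Its log2 levels (in CPM, counts scaled to library size, each library scaled by the trimmed mean of M values) correlated with them at r = 0.973 and r = 0.973 and with the CTCF HET libraries at r = 0.980 to 0.983. WT replicates 2 and 3 correlated at r = 0.986 with each other. It lay nearer to the CTCF HET side than the mean of the other two WT libraries in 1247 of the 1449 genes called higher (86.1%) and in 1577 of the 1956 called lower (80.6%). Counts of calls without it are therefore also given for many lists, and a list without such a count may have moved as well. The mean GC content of the counted transcripts was 47.3 to 47.9% in WT and 48.1 to 48.9% in CTCF HET. Nothing in the labels says whether the 3 libraries of a genotype came from pools prepared on separate days, so the p-values measure the spread between these libraries.

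The sorted cells carried the transcripts of their label, along with those of markers of earlier germ cell stages. All 17 round spermatid markers in the table were tested and summed to 4591 to 5654 CPM in WT and 2626 to 3381 CPM in CTCF HET. Lrrc34, whose values are given below, made up most of this sum in every library. Spermatocyte markers summed to 2285 to 2768 CPM in WT and 1798 to 2231 CPM in CTCF HET. Spermatogonium markers summed to 957 to 1242 CPM in WT and 1264 to 1713 CPM in CTCF HET. The part of cell stage in these sums was not tested. Hemoglobin genes were at 0 counts in all 6 libraries. Of 10 Leydig cell markers Insl3 and Lhcgr were at 0 as well, while the sum of the list was 12.5 to 15.2 CPM in WT and 11.6 to 14.6 CPM in CTCF HET. The Sertoli cell genes Sox9, Wt1, Gata4, Amh and Fshr had 0 to 12 counts in any library.

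Ctcf itself (chr8:108160468-108206822, mm9, plus strand), the gene that differs by design, did not pass the test. It measured 45.5, 29.5 and 27.9 CPM in the WT libraries and 31.3, 20.8 and 23.6 CPM in the CTCF HET libraries. The groups overlapped, since CTCF HET replicate 1 exceeded WT replicates 2 and 3. The CTCF HET mean was 73.6% of the WT mean, with a log2 fold change of -0.44 ± 0.22 (here and later ± SE), adjusted p = 0.16, by edgeR's quasi-likelihood test with Benjamini-Hochberg adjustment over all genes. Without WT replicate 1 the log2 fold change was -0.18, and it ran from -0.63 to -0.18 over the fits that left out 1 library. The count table holds 1 value per gene, so the intact and the mutated allele were not told apart. Ctcfl, the gene of BORIS (chr2:172919110-172945026), measured 2.66, 4.82 and 3.2 CPM in the WT libraries and 2.42, 2.96 and 3.26 CPM in the CTCF HET libraries, with a log2 fold change of -0.3 ± 0.25, adjusted p = 0.4 and overlapping groups.

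Rltpr (chr8:108210174-108222078, plus strand), which starts 3351 bp beyond the end of Ctcf on the same strand, was the gene with the highest fold change in these cells. It encodes a capping protein regulator of the CARMIL family, best known in T cells. Rltpr measured 0.885, 1.09 and 0.571 CPM in the WT libraries and 62.3, 74.1 and 58.1 CPM in the CTCF HET libraries. Every CTCF HET library lay far above every WT library, a 76.3-fold difference and a log2 fold change of 6.25 ± 0.23, adjusted p = 6.7e-06. At the thresholds the study used with DESeq2 (adjusted p of 0.001 and 2-fold), Rltpr was the 1 gene of 15238 called by edgeR (0.00656%). DESeq2 on the same 6 libraries called 533 genes at these thresholds, 105 higher and 428 lower. By edgeR without WT replicate 1 the count was 813. The log2 fold change of Rltpr stayed between 6.06 and 6.44 when any 1 library was left out.

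Rltpr was also high in the other 2 sets of CTCF HET libraries. Nothing in the sources used here says whether the sorted spermatocytes came from the same mice as the round spermatids. In spermatocytes it measured 1.49 and 1.52 CPM in the 2 WT libraries and 60.5, 35.3 and 50.3 CPM in the 3 CTCF HET libraries (log2 fold change 5.03 ± 0.29, adjusted p = 0.0018). In germ cells of whole testis it measured 1.49, 1.03 and 1.47 CPM in WT and 91.9, 62.3 and 61.9 CPM in CTCF HET (log2 fold change 5.77 ± 0.28, adjusted p = 0.00015), where it was the 1 gene of 16097 called (0.00621%). Against the same WT round spermatids, which both comparisons share with this one, the log2 fold change of Rltpr was 5.52 ± 0.41 in CM, which carries the same Ctcf allele, and 1.0 ± 0.29 in BORIS KO, which does not.

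**Figure D1:**
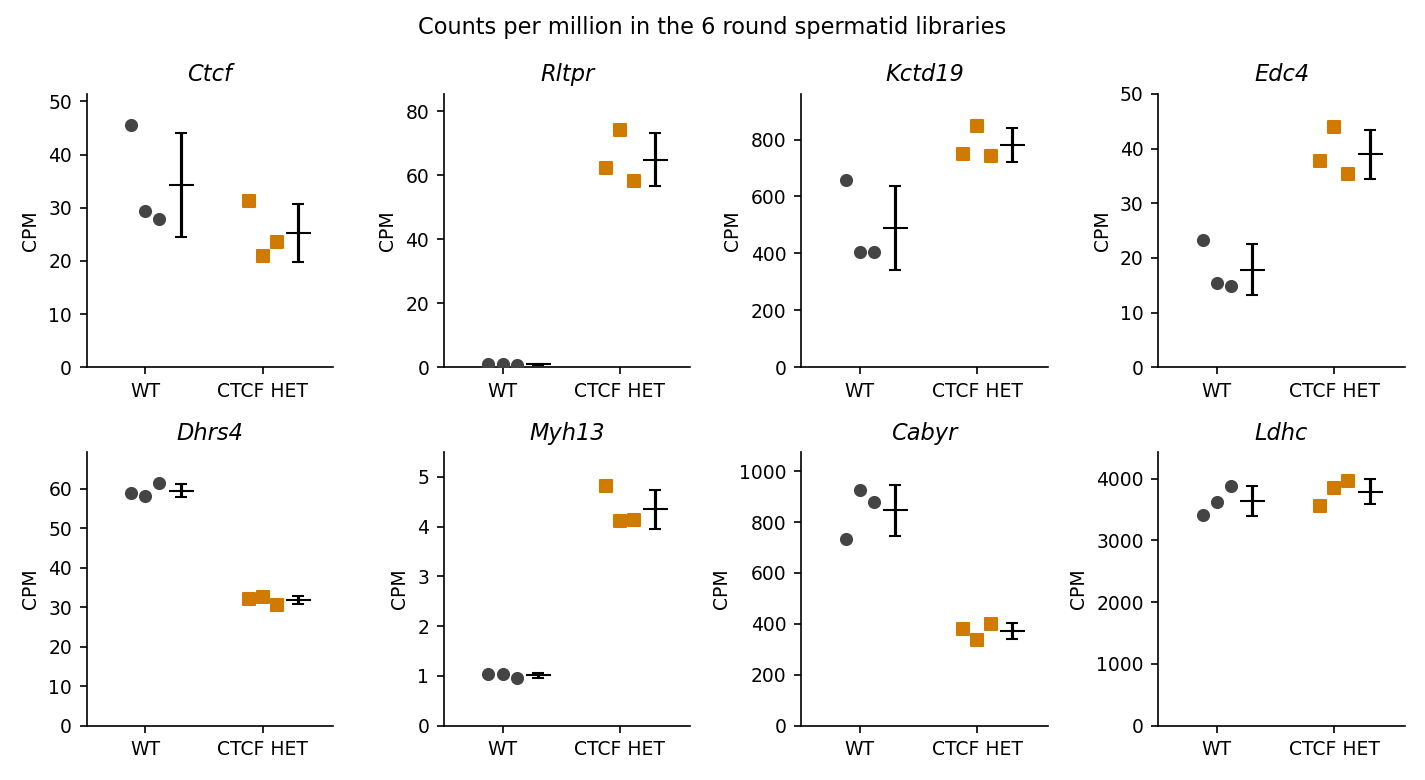
Counts scaled to library size, CPM (vertical axis, from 0), of 8 genes in each WT (grey circles) and CTCF HET (orange squares) round spermatid library, with the mean and SD (n = 3) beside the points. Rltpr, Edc4, Kctd19 and Myh13 sat higher and Dhrs4 and Cabyr lower in all 3 CTCF HET libraries, the Ctcf groups overlapped, and Ldhc (lactate dehydrogenase of germ cells) hardly differed, with a log2 fold change of 0.06.

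Most other genes near Ctcf did not pass the test, and the 4 that rose did so by far less than Rltpr. Besides Ctcf and Rltpr the table holds 23 genes within 250 kb of Ctcf, of which 18 were tested, 4 were called higher and none lower, against 9.51% called higher and 12.8% called lower among all genes tested, and their median log2 fold change was 0.33 against 0.00 over all. Edc4, which promotes removal of the mRNA cap, measured 23.2, 15.5 and 14.9 CPM in the WT libraries and 37.7, 44 and 35.3 CPM in the CTCF HET libraries (log2 fold change 1.12 ± 0.18, adjusted p = 0.0057). Kctd19, a meiotic BTB domain protein, measured 658, 403 and 404 CPM in the WT libraries and 748, 849 and 742 CPM in the CTCF HET libraries (log2 fold change 0.68 ± 0.19, adjusted p = 0.034). Both sets of values were free of overlap, and in each WT replicate 1 was the highest of the WT libraries. The other genes called here were the serine kinase gene Pskh1 (log2 fold change 1.07 ± 0.27, adjusted p = 0.025) and E130303B06Rik (log2 fold change 0.68 ± 0.16, adjusted p = 0.02). In CTCF HET spermatocytes the same neighbours were lower, with log2 fold changes of -0.94 ± 0.16, adjusted p = 0.012 for Edc4 and -1.04 ± 0.09, adjusted p = 0.0039 for Kctd19. The difference between the cell types was called for both (log2 2.17, adjusted p = 0.0013 and log2 1.82, adjusted p = 0.0015). With the trend on GC content removed (described below) the median of the 18 genes was 0.01, with 3 higher and 1 lower, and E130303B06Rik was no longer called (log2 fold change 0.20, adjusted p = 0.14). In spermatocytes Edc4 was then not called (log2 fold change -0.16, adjusted p = 0.46) while Kctd19 was (log2 fold change -0.47, adjusted p = 0.017). The fit of all 4 genotypes called 1 of these genes, as did leaving out WT replicate 2, WT replicate 3 or CTCF HET replicate 2, and leaving out either other CTCF HET library gave 2.

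The CTCF peaks deposited for WT testis germ cells, a mixed population and not sorted round spermatids, were searched for the core CTCF motif around the promoters of 62 genes described here. Its letters were CC, 3 bases of any kind, AG, 2 bases of any kind and GGC, a stretch of 12 bases, read on both strands within 100 bp of a peak summit. It was found at 49.6% of 34625 CTCF peaks, at 4.21% of windows of the same length 1 kb away and at 34.2% of the 5622 genes that had a CTCF peak summit within 1 kb of a start. Of the 62 genes, 19 had such a promoter peak and 6 of these held the motif. They are shown here because they are the bound promoter sites of Ctcf, of its neighbour Kctd19 and of 4 genes called in round spermatids. The motif is in capitals, with 8 flanking bases on each side, 5′ to 3′ on the minus strand of mm9.
Ctcf, chr8:108160647-108160674: tcgtgacaCCTAGAGGCGGCccgcgaaa
Kctd19, chr8:107937570-107937597: ggtcagcgCCCCCAGGCGGCggaggcac
Trrap, chr5:145529600-145529627: cctccgggCCGCCAGGGGGCgccgtagc
Ttll1, chr15:83340557-83340584: ggtggaagCCAGAAGAGGGCgtatggga
Det1, chr7:85992111-85992138: cagcgcttCCGGTAGCGGGCggaaaccc
Col1a1, chr11:94798274-94798301: tcggctggCCAGCAGGAGGCacagggac
In the annotation the sites of Ctcf, Trrap, Ttll1 and Col1a1 lay in introns of their genes, that of Det1 overlapped the untranslated first exon and that of Kctd19 lay 181 bp before its start. The sites of Ctcf and Trrap were also 175 and 50 bp before the start of a shorter annotated transcript. The peak at the Rltpr promoter (chr8:108209496-108210276) had a height of 2726, above 91.2% of the CTCF peaks, and held no match to these letters within 100 bp of its summit. A match is a description of the sequence and no measure of binding in round spermatids.

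Among all genes tested, 3405 of 15238 genes (22.3%) were called at an adjusted p of 0.05, 1449 higher (9.51%) and 1956 lower (12.8%) in CTCF HET. Most differences were modest. The median size was 0.69 on the log2 scale among higher genes and 0.78 among lower genes, and 225 higher and 596 lower genes passed 1 on that scale. The groups did not overlap in 6452 genes (42.3%), among them 1433 of the higher and 1924 of the lower genes. Without WT replicate 1 the test called 6516 genes, 3209 higher and 3307 lower, and without WT replicates 2 and 3 it called 934 and 929. With the BORIS KO and CM libraries in the same fit, which share their estimate of the spread, it called 480, 58 higher and 422 lower.

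**Figure D2:**
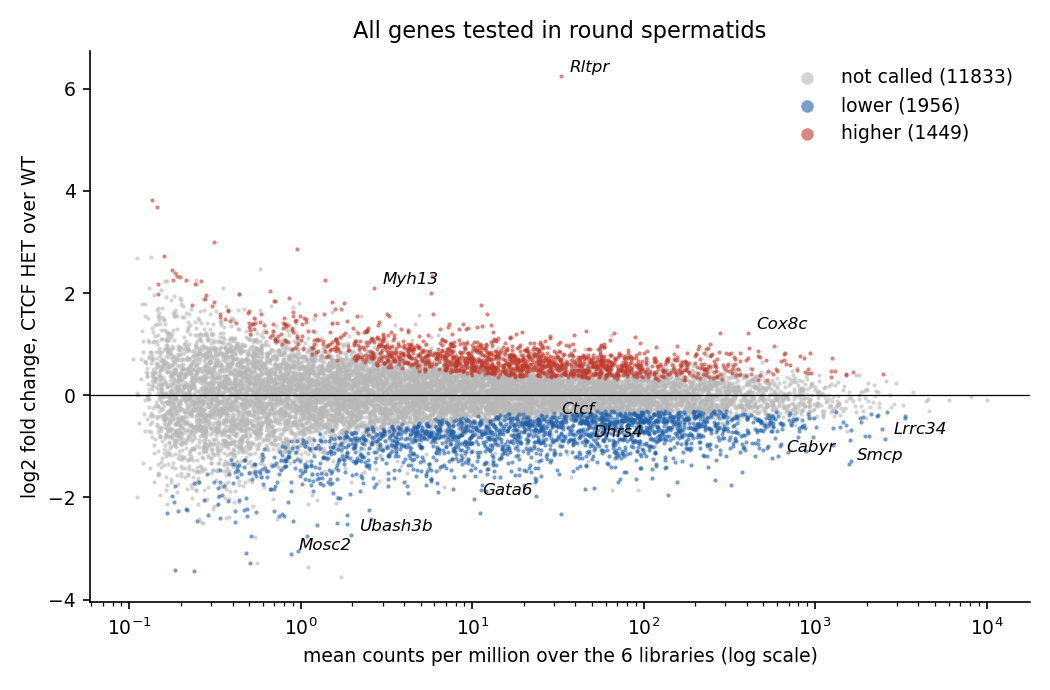
Log2 fold change of CTCF HET over WT (vertical axis) against the mean CPM over the 6 libraries (horizontal axis, log scale) for the 15238 genes tested, with 1449 higher genes in red and 1956 lower genes in blue. Rltpr stands alone at 6.25, and most other called genes lie within 1 of 0.

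Among the 20 genes with the smallest p in each direction, those that fell included several genes of sperm structure. Cabyr, a calcium-binding protein of the sperm tail's fibrous sheath, measured 733, 926 and 879.9 CPM in the WT libraries and 378, 338 and 399.8 CPM in the CTCF HET libraries (log2 fold change -1.19 ± 0.12, adjusted p = 0.0024). Aldoart1, an aldolase retrogene of the sperm tail, measured 99.6, 105 and 111 CPM in the WT libraries and 50.4, 51.6 and 48 CPM in the CTCF HET libraries (log2 fold change -1.07 ± 0.10, adjusted p = 0.0024). Spata19, a mitochondrial protein of the sperm midpiece, measured 108, 109 and 125 CPM in the WT libraries and 50.1, 49.6 and 56.8 CPM in the CTCF HET libraries (log2 fold change -1.13 ± 0.11, adjusted p = 0.0024). In each the 3 CTCF HET libraries lay close together and below every WT library. Lower values were also called for Adam39 (log2 fold change -1.22), a testis disintegrin and metalloprotease, Il31 (-1.41), a cytokine gene, Dynll2 (-0.97), a dynein light chain, and Cypt12 (-0.90), a protein of the perinuclear theca.

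Steeper falls were found in genes at lower levels. The transcription factor gene Gata6 measured 14.4, 17 and 18.1 CPM in the WT libraries and 3.95, 3.92 and 4.19 CPM in the CTCF HET libraries (log2 fold change -2.04 ± 0.14, adjusted p = 0.0011). Ubash3b, a phosphatase of receptor signalling, measured 4.35, 2.97 and 2.93 CPM in the WT libraries and 0.443, 0.541 and 0.56 CPM in the CTCF HET libraries (log2 fold change -2.74 ± 0.26, adjusted p = 0.0024). Mosc2, a mitochondrial reductase gene, measured 1.53, 1.67 and 1.49 CPM in the WT libraries and 0.136, 0.221 and 0.187 CPM in the CTCF HET libraries (log2 fold change -3.1 ± 0.31, adjusted p = 0.0024). None of these groups overlapped. Wsb2 (log2 fold change -1.77 ± 0.17, adjusted p = 0.0024), a SOCS box protein, and Acot10 (log2 fold change -1.48 ± 0.15, adjusted p = 0.0024), an acyl-CoA thioesterase, fell as well.

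The genes that rose with the smallest p, besides Rltpr, were of mixed function. Myh13, the myosin heavy chain of the extraocular muscles, measured 1.04, 1.03 and 0.957 CPM in the WT libraries and 4.8, 4.11 and 4.13 CPM in the CTCF HET libraries (log2 fold change 2.1 ± 0.19, adjusted p = 0.0024). Slc7a2, a transporter of cationic amino acids, measured 5.28, 4.86 and 5.08 CPM in the WT libraries and 19.5, 11 and 21.7 CPM in the CTCF HET libraries (log2 fold change 1.77 ± 0.24, adjusted p = 0.0031), with CTCF HET replicate 2 the lowest of its group and still above WT. Trrap, the scaffold of histone acetyltransferase complexes whose promoter site is printed above, measured 6.5, 6.07 and 5.65 CPM in the WT libraries and 13.5, 12.9 and 11.1 CPM in the CTCF HET libraries (log2 fold change 1.04 ± 0.14, adjusted p = 0.0032). Ttll1, which adds glutamate chains to tubulin, measured 54.2, 49.9 and 49.1 CPM in the WT libraries and 86.3, 79.9 and 88.2 CPM in the CTCF HET libraries (log2 fold change 0.73 ± 0.10, adjusted p = 0.0034). Dolpp1, of the dolichol cycle, and Mgll, a monoacylglycerol lipase, had log2 fold changes of 1.58 ± 0.22 and 1.04 ± 0.14. Prostate stem cell antigen, Psca, rose by 1.6 ± 0.20 on the log2 scale, and Desert hedgehog, Dhh, a signal that Sertoli cells are known to secrete, rose by 1.29 ± 0.16. All 40 genes with the smallest p kept their call when any 1 library was left out, and with the GC trend removed 36 of the 37 that could be fitted did, the exception being 2900097C17Rik (log2 fold change 0.50, adjusted p = 0.17). The 40 were chosen by p on the same libraries that these fits reuse, so the kept calls are a description. In the fit of all 4 genotypes 27 were called, 10 higher and 17 lower.

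Genes that mark round spermatids were lower as a group. Of the 17 tested, 12 were called lower (70.6%, against 12.8% of all genes) and none higher (against 9.51%), with a median log2 fold change of -0.52. Lrrc34, a leucine-rich repeat protein of germ cells, measured 2664, 3484 and 3705 CPM in the WT libraries and 1989.7, 1400.1 and 2081 CPM in the CTCF HET libraries (log2 fold change -0.85 ± 0.18, adjusted p = 0.013). Acrv1, a protein of the acrosomal matrix, measured 210.4, 244 and 235 CPM in the WT libraries and 118, 111 and 142 CPM in the CTCF HET libraries (log2 fold change -0.9 ± 0.12, adjusted p = 0.0032). Spaca7, also of the acrosome, measured 263, 284 and 315 CPM in the WT libraries and 142, 129.5 and 152 CPM in the CTCF HET libraries (log2 fold change -1.02 ± 0.11, adjusted p = 0.0024). Tssk2, a kinase of the sperm tail, measured 144, 162 and 152 CPM in the WT libraries and 87.6, 87.8 and 85.9 CPM in the CTCF HET libraries (log2 fold change -0.81 ± 0.10, adjusted p = 0.0024). The CTCF HET libraries were below all WT libraries in each of these 4 genes. Counts were 12, 7 and 9 lower without WT replicates 1, 2 and 3, 8 to 10 without 1 CTCF HET library, 14 with the GC trend removed (median -0.50) and 5 in the fit of all 4 genotypes. In bulk libraries, fewer cells of a stage and less RNA of these genes per cell cannot be told apart.

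Genes that act later, in elongating spermatids, followed the same direction, with 9 of 12 lower (75%, against 12.8% of all genes), none higher and a median of -0.58. Smcp, of the mitochondrial capsule, measured 1679.8, 2783 and 2322 CPM in the WT libraries and 915, 729.6 and 1019 CPM in the CTCF HET libraries (log2 fold change -1.35 ± 0.19, adjusted p = 0.0037). Akap4, the main fibrous sheath anchor of protein kinase A, measured 519, 584 and 587 CPM in the WT libraries and 307, 263 and 316 CPM in the CTCF HET libraries (log2 fold change -0.93 ± 0.11, adjusted p = 0.0024). Prm1, the protamine that replaces histones in the sperm nucleus, measured 98, 193 and 182 CPM in the WT libraries and 102, 88.7 and 82.7 CPM in the CTCF HET libraries (log2 fold change -0.79 ± 0.23, adjusted p = 0.038), with WT replicate 1 within the CTCF HET range. Tnp1, a transition protein that comes before protamine, measured 77.1, 106 and 117 CPM in the WT libraries and 71.1, 73.6 and 64.7 CPM in the CTCF HET libraries (log2 fold change -0.52 ± 0.15, adjusted p = 0.041). In the fit without the GC trend 11 were lower (median -0.70), and in that of all 4 genotypes 2 were. Leaving out WT replicate 2, WT replicate 3 or CTCF HET replicate 1 gave 5.

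**Figure D3:**
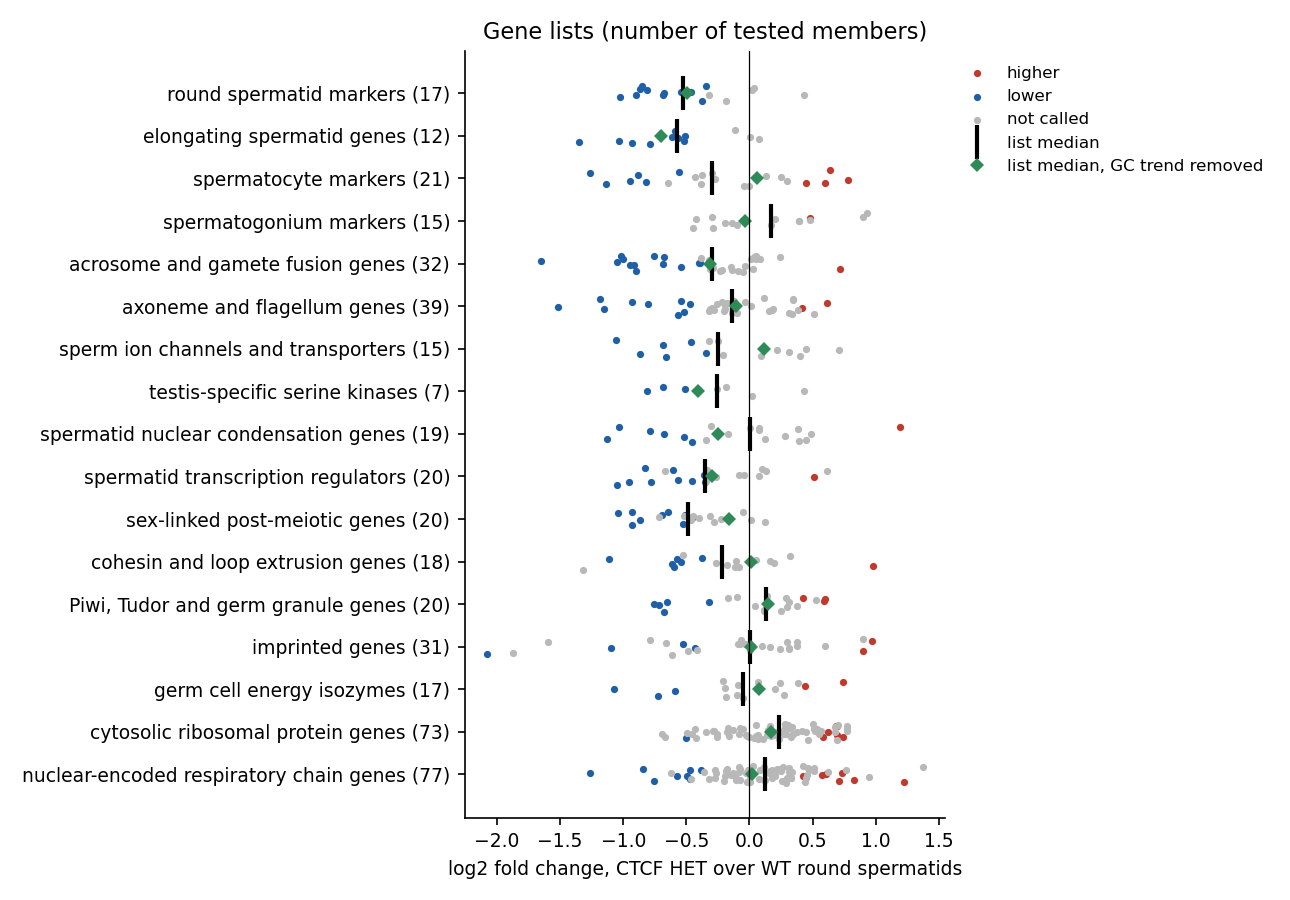
Log2 fold change of CTCF HET over WT round spermatids (horizontal axis) of each tested member of 17 gene lists, with the number tested in brackets, called genes in red (higher) or blue (lower), a black bar at the list median and a green diamond at the median with the GC trend removed. Round and elongating spermatid genes lie below 0 at medians of -0.52 and -0.58, both also below 0 with the trend removed, while the cohesin, spermatocyte and ion channel and energy isozyme medians move from below to above 0.

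Acrosome and gamete fusion genes fell in 13 of 32 cases (40.6%, against 12.8% of all genes), with 1 higher (3.1%, against 9.51%) and a median of -0.30. Izumo1, the sperm protein that binds the egg's JUNO receptor, measured 70.9, 76.9 and 75.6 CPM in the WT libraries and 51.7, 49.5 and 52.2 CPM in the CTCF HET libraries (log2 fold change -0.54 ± 0.10, adjusted p = 0.0077). Spam1, a hyaluronidase of the sperm surface, measured 292, 323 and 319.7 CPM in the WT libraries and 162, 126 and 178 CPM in the CTCF HET libraries (log2 fold change -1.0 ± 0.14, adjusted p = 0.0032), and Hyal5 is a related enzyme (log2 fold change -1.02 ± 0.17, adjusted p = 0.0057). Izumo4 was the only member of the list that rose (log2 fold change 0.72 ± 0.17, adjusted p = 0.019). The list kept 14 lower and 2 higher genes with the GC trend removed, although Crisp2, a secretory protein of acrosome and tail, then had a log2 fold change of -0.01, adjusted p = 0.97, against -0.4 ± 0.12, adjusted p = 0.049 before. All 4 genotypes in 1 fit left 5 lower and none higher.

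Of 39 axoneme and flagellum genes tested, 9 were lower (23.1%, against 12.8% of all genes) and 2 higher (5.13%, against 9.51%), at a median of -0.14. Ropn1, a fibrous sheath protein, measured 91.3, 115 and 126 CPM in the WT libraries and 51.2, 50.2 and 47.9 CPM in the CTCF HET libraries (log2 fold change -1.15 ± 0.13, adjusted p = 0.0024). Akap3 (log2 fold change -0.47 ± 0.10, adjusted p = 0.015) and Odf1 of the outer dense fibres (log2 fold change -0.56 ± 0.11, adjusted p = 0.0096) fell as well, whereas the dynein intermediate chain gene Dnaic2 rose (log2 fold change 0.61 ± 0.13, adjusted p = 0.015). Rsph1, a radial spoke head protein, rose by 0.42 ± 0.10 on the log2 scale, from 2352, 2024 and 2059 CPM in WT to 2933, 2979 and 2677 CPM in CTCF HET, and was not called with the GC trend removed (log2 fold change 0.25, adjusted p = 0.065). The list held 12 lower and 8 higher genes without WT replicate 1. Leaving out either other WT library gave 5 lower and none higher, and fitting all 4 genotypes 3 lower.

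Ion channels and transporters of sperm were lower in 6 of 15 cases (40%, against 12.8% of all genes) and higher in none, with a median of -0.25. Catsper3, a pore subunit of the sperm calcium channel, measured 75.3, 73.3 and 75.4 CPM in the WT libraries and 39.9, 40.2 and 42.6 CPM in the CTCF HET libraries (log2 fold change -0.87 ± 0.10, adjusted p = 0.0024), without overlap. Catsper1 (log2 fold change -0.46 ± 0.10, adjusted p = 0.013) and the potassium channel Kcnu1 (log2 fold change -0.68 ± 0.11, adjusted p = 0.0062), known as SLO3, fell with its partner Lrrc52 (log2 fold change -1.05 ± 0.14, adjusted p = 0.0032). The counts were 2 higher and 6 lower, at a median of 0.12, with the GC trend removed, without WT replicate 1 they were 4 higher and 7 lower, and with all 4 genotypes 3 lower.

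Among 20 regulators of transcription in spermatids, 9 were lower (45%, against 12.8% of all genes) and 1 higher (5%, against 9.51%), and the median was -0.35. Crem, the activator of many post-meiotic genes, measured 662, 808 and 768 CPM in the WT libraries and 458, 338 and 464 CPM in the CTCF HET libraries (log2 fold change -0.83 ± 0.14, adjusted p = 0.0067). Spz1, a bHLH factor, measured 534, 632 and 677 CPM in the WT libraries and 326, 289 and 338 CPM in the CTCF HET libraries (log2 fold change -0.95 ± 0.12, adjusted p = 0.0025). Fhl5, the coactivator known as ACT that works with CREM, measured 34, 39.9 and 41.2 CPM in the WT libraries and 17.3, 16.3 and 22 CPM in the CTCF HET libraries (log2 fold change -1.05 ± 0.15, adjusted p = 0.0035). All 3 were lower in every CTCF HET library. Sox5 (log2 fold change -0.61), Creb3l4 (-0.78) and the testis bromodomain gene Brdt (-0.45) also fell, the last of them no longer called with the GC trend removed (-0.25, adjusted p = 0.074). Rfx2, a factor of ciliary genes, was the 1 that rose (log2 fold change 0.51 ± 0.15, adjusted p = 0.041), a call that was lost with the GC trend removed (log2 fold change 0.09, adjusted p = 0.49). The list held 13 lower genes without WT replicate 1, 5 without either other WT library or without CTCF HET replicate 1, and 3 with all 4 genotypes.

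Nuclear condensation genes were split at a median of 0.00, with 6 of 19 lower (31.6%, against 12.8% of all genes) and 1 higher (5.26%, against 9.51%). Cdyl, which works on histone acylation before histones are replaced, measured 82.7, 104 and 101 CPM in the WT libraries and 47.6, 37.2 and 46.1 CPM in the CTCF HET libraries (log2 fold change -1.13 ± 0.14, adjusted p = 0.0024). H1fnt, a testis linker histone, fell as well (log2 fold change -0.67 ± 0.12, adjusted p = 0.0066). H2afx, the histone variant that is phosphorylated at DNA breaks, rose, from 6.76, 3.67 and 3.46 CPM in WT to 9.68, 14.4 and 7.92 CPM in CTCF HET (log2 fold change 1.19 ± 0.30, adjusted p = 0.025). Once the GC trend was removed, 9 were lower and 1 higher, at a median of -0.25. The testis-specific serine kinases, a small family of 7, had none higher and 3 lower (42.9%, against 12.8% of all genes), among them Tssk5 (log2 fold change -0.68 ± 0.17, adjusted p = 0.023). Of these kinases 5 were lower with the GC trend removed and 1 with all 4 genotypes. Leaving out WT replicate 2, WT replicate 3 or CTCF HET replicate 1 also gave 1 lower kinase, and leaving out either other CTCF HET library gave 2. None of the condensation genes was called with all 4 genotypes in 1 fit, and 3 were lower when any library but WT replicate 1 or CTCF HET replicate 3 was left out.

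Genes of the X and Y chromosomes that are reactivated after meiosis were lower in 9 of 20 cases (45%, against 12.8% of all genes). None was higher, and the median was -0.48. Cylc1, of the cytoskeletal calyx around the sperm nucleus, measured 419, 422 and 471 CPM in the WT libraries and 251, 174 and 265 CPM in the CTCF HET libraries (log2 fold change -0.93 ± 0.16, adjusted p = 0.0063). The homeobox gene Rhox11 measured 6.59, 6.01 and 7.77 CPM in the WT libraries and 3.51, 2.88 and 3.53 CPM in the CTCF HET libraries (log2 fold change -1.04 ± 0.17, adjusted p = 0.0058). Zfy2, a Y-linked zinc finger gene, measured 5.54, 8.07 and 9.64 CPM in the WT libraries and 4.78, 3.22 and 4.77 CPM in the CTCF HET libraries (log2 fold change -0.86 ± 0.24, adjusted p = 0.034). The groups did not overlap in these 3 genes. Over the whole X chromosome 146 of 548 genes tested (26.6%, against 12.8% of all genes) were lower and 6 higher (1.09%, against 9.51%), with a median of -0.32. These counts changed with the GC trend and with the libraries used. In the fit of all 4 genotypes the list held 2 lower genes and the X chromosome 34. Leaving out 1 library other than WT replicate 1 left 3 to 5 lower in the list. With WT replicate 1 left out the X chromosome held 186 lower and 27 higher. After removal of the trend the list held 3 lower genes (median -0.16), the X chromosome 78 lower and 10 higher (median -0.09), and Cylc1 and Zfy2 had log2 fold changes of -0.40, adjusted p = 0.051 and -0.45, adjusted p = 0.072.

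Meiotic genes went both ways. Of 21 spermatocyte markers 6 were lower (28.57%, against 12.8% of all genes) and 4 higher (19.05%, against 9.51%), with a median of -0.30. Sycp1, the transverse filament of the synaptonemal complex, measured 268, 406 and 442 CPM in the WT libraries and 169, 111 and 186 CPM in the CTCF HET libraries (log2 fold change -1.26 ± 0.23, adjusted p = 0.0078). Syce2, of its central element, measured 27.1, 33.4 and 32.5 CPM in the WT libraries and 16.9, 18.1 and 17.9 CPM in the CTCF HET libraries (log2 fold change -0.82 ± 0.12, adjusted p = 0.0045). The mismatch repair homolog Msh4 fell as well (log2 fold change -1.13 ± 0.21, adjusted p = 0.0094). Its partner Msh5 rose instead, from 3.71, 3.47 and 2.69 CPM to 4.79, 5.31 and 5.29 CPM (log2 fold change 0.64 ± 0.18, adjusted p = 0.033), as did Mei1 (log2 fold change 0.78 ± 0.18, adjusted p = 0.02), a gene needed for meiotic breaks. The list summed to 2285 to 2768 CPM in WT and 1798 to 2231 CPM in CTCF HET. With the GC trend removed its median was 0.06, with 5 lower and 2 higher, and neither Msh5 (log2 fold change 0.35, adjusted p = 0.15) nor Mei1 (log2 fold change 0.48, adjusted p = 0.054) was called. Of 15 spermatogonium markers 1 (6.67%), Dmrtb1, was called (log2 fold change 0.48 ± 0.14, adjusted p = 0.043), and it was not called with the trend removed (log2 fold change 0.02, adjusted p = 0.9). The spermatocyte list held 9 lower and 6 higher genes without WT replicate 1 and 1 of each with all 4 genotypes. It held 3 lower and none higher when WT replicate 2, WT replicate 3 or CTCF HET replicate 1 was left out.

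Markers of somatic cells differed in level, from near the limit of counting for the defining Sertoli cell genes to well above it for the macrophage gene Aif1. The 16 Sertoli cell markers in the table summed to 6.01 to 8.19 CPM in WT and 12.4 to 15.7 CPM in CTCF HET. Of the 6 that passed the filter on low counts 3 were called higher (50%, against 9.51% of all genes), none lower. Most of the sum was Dhh, at 4.35, 3.49 and 3.44 CPM in the WT libraries and 9.28, 10.0 and 8.32 CPM in the CTCF HET libraries (log2 fold change 1.29 ± 0.16, adjusted p = 0.0025), which rose without overlap. The defining genes Sox9, Wt1, Gata4, Amh and Fshr stayed at 0 to 12 counts in every library. Amhr2 (log2 fold change 1.61 ± 0.39, adjusted p = 0.022) and Aard (log2 fold change 2.39 ± 0.73, adjusted p = 0.046) lay below 1 CPM in all libraries, and Amhr2 was not called with the GC trend removed (1.16, adjusted p = 0.062). The number of Sertoli cell markers called higher was then 2, and it was 2 of 16 without the filter and 0 of 10 with all 4 genotypes. With WT replicate 1 left out it was 4, with WT replicate 3 left out 2 and with any other library left out 1. Macrophage markers summed to 81.2 to 92.0 CPM in WT and 57.6 to 64.0 CPM in CTCF HET, of which Aif1 made up 79.5, 77.1 and 89.2 and 56.7, 61.8 and 54.3 CPM (log2 fold change -0.51 ± 0.11, adjusted p = 0.014). Of 5 tested, 2 were lower, the other being Mrc1 (-1.37, adjusted p = 0.042), which was not called with the GC trend removed (-1.13, adjusted p = 0.058). C1qa had 0 counts in every library, and C1qc, Cd74, H2-Aa and Lyz2 had 0 to 7, so the sum is nearly all Aif1. Of 5 endothelial markers tested Cldn5 rose (log2 fold change 1.91 ± 0.33, adjusted p = 0.0067) and none was called lower, at a median of -0.30. The endothelial list summed to 4.94 to 8.13 CPM in WT and 5.13 to 6.47 CPM in CTCF HET. No Leydig or myoid marker of the 3 tested in each was called. The part of other cell types in the results was not tested.

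Cohesin and loop extrusion genes, whose products meet CTCF at loop ends, were lower in 6 of 18 cases (33.3%, against 12.8% of all genes), higher in 1, with a median of -0.22. No lower gene was called without WT replicate 2 or 3 or with all 4 genotypes, and 2 to 4 were without 1 CTCF HET library. The fit without WT replicate 1 had 8 lower and 4 higher. Rec8, the meiotic kleisin subunit, measured 110.0, 91.8 and 91.3 CPM in the WT libraries and 73.2, 68 and 60.3 CPM in the CTCF HET libraries (log2 fold change -0.54 ± 0.12, adjusted p = 0.017). Smc3, a core subunit, measured 375, 411 and 417 CPM in the WT libraries and 286, 217 and 292 CPM in the CTCF HET libraries (log2 fold change -0.6 ± 0.13, adjusted p = 0.015). Smc1b, the meiotic partner of Smc3, measured 1785, 1798 and 1827 CPM in the WT libraries and 1362, 902 and 1366 CPM in the CTCF HET libraries (log2 fold change -0.58 ± 0.16, adjusted p = 0.031). None of these groups overlapped. Mau2, of the complex that loads cohesin, was the 1 that rose, from 21.3, 15.4 and 14.9 CPM to 30.9, 40.0 and 30.7 CPM (log2 fold change 0.98 ± 0.17, adjusted p = 0.0076). The falls of Rec8 and Smc3 remained called with the GC trend removed (log2 fold changes -0.89, adjusted p = 0.00057 and -0.29, adjusted p = 0.046), while Smc1b (log2 fold change -0.18, adjusted p = 0.33), Stag2 (log2 fold change -0.15, adjusted p = 0.41) and Rad21 (log2 fold change -0.17, adjusted p = 0.19) were not, and the median of the list was then 0.02. Of 14 factors that bind or work with CTCF, Parp1 rose (log2 fold change 0.57 ± 0.16, adjusted p = 0.038) and Npm1 fell (log2 fold change -0.45 ± 0.10, adjusted p = 0.018), and Npm1 was not called with the trend removed. Without WT replicate 1 these factors held 2 higher and 4 lower genes.

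Clustered protocadherins and imprinted genes are classical targets of CTCF. Of the 59 protocadherins counted, 35 were tested and 4 were lower (11.4%, under the 12.8% of all genes), with none higher and a median of -1.01. Pcdha2 measured 20.6, 23.6 and 23.8 CPM in the WT libraries and 14.2, 10.5 and 13.7 CPM in the CTCF HET libraries (log2 fold change -0.82 ± 0.15, adjusted p = 0.0076). Pcdhb22 measured 0.264, 1.25 and 1.21 CPM in the WT libraries and 0.0341, 0.0615 and 0.207 CPM in the CTCF HET libraries (log2 fold change -3.28 ± 0.79, adjusted p = 0.021). WT replicate 1 was the lowest WT library in both. Without it 26 of 41 were lower and 1 higher, at a median of -2.0. Leaving out any other library except CTCF HET replicate 3 gave 1 lower, and the fit of all 4 genotypes called none of 43. Only 9 could be fitted with the GC trend removed, of which 2 were lower, at a median of -0.12. Members of a cluster share exons or have near-identical sequence, so reads may be split among them in an uncertain way. Of 31 imprinted genes tested 4 were lower (12.9%) and 2 higher (6.45%), near the shares of all genes, with a median of 0.00. The counts were 9 lower and 3 higher of 34 without WT replicate 1 (median -0.19) and 1 lower without either other WT library. Without CTCF HET replicates 1 and 2 they were 2 and 1 lower, and with all 4 genotypes none was called. Sgce, expressed from the paternal allele, measured 1.01, 1.53 and 1.53 CPM in the WT libraries and 0.318, 0.271 and 0.373 CPM in the CTCF HET libraries (log2 fold change -2.08 ± 0.32, adjusted p = 0.0046). Igf2 measured 7.44, 13.2 and 11 CPM in the WT libraries and 5.92, 4.4 and 4.4 CPM in the CTCF HET libraries (log2 fold change -1.1 ± 0.23, adjusted p = 0.013). Trappc9 rose (log2 fold change 0.9 ± 0.22, adjusted p = 0.024). No Hox gene of 11 tested was called, and of 13 writers and erasers of DNA methylation Uhrf1 rose (log2 fold change 0.68 ± 0.13, adjusted p = 0.0097). Without WT replicate 1 the Hox list held 1 higher and 1 lower gene and the methylation list 3 and 2.

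Piwi, Tudor and germ granule genes, which silence transposons through small RNAs, were higher in 3 (15%, against 9.51% of all genes) and lower in 5 (25%, against 12.8%) of 20 cases. Higher genes led without WT replicate 1, with 7 against 5. Leaving out either other WT library, or fitting all 4 genotypes, gave 1 call each way. Once the GC trend was removed 3 were higher and 1 lower. Piwil1, the Piwi protein of pachytene spermatocytes and round spermatids, measured 52, 47 and 46.9 CPM in the WT libraries and 76.7, 69.6 and 73.4 CPM in the CTCF HET libraries (log2 fold change 0.59 ± 0.10, adjusted p = 0.0068). Tdrd6, a scaffold of the chromatoid body, measured 1492, 1209.9 and 1161 CPM in the WT libraries and 1791, 1684 and 1701 CPM in the CTCF HET libraries (log2 fold change 0.42 ± 0.12, adjusted p = 0.033). Both rose in every CTCF HET library. Rnf17, the Tudor protein known as TDRD4, fell (log2 fold change -0.65 ± 0.12, adjusted p = 0.0095). The falls of Rnf17 (log2 fold change -0.25, adjusted p = 0.11), Tex15 (log2 fold change -0.23, adjusted p = 0.19) and Tdrd3 (log2 fold change -0.28, adjusted p = 0.11) were not called with the GC trend removed. Among isozymes of germ cell energy supply, Aldoart1 and Gapdhs (log2 fold change -0.59 ± 0.11, adjusted p = 0.0077), both enzymes of glycolysis in the tail, and the monocarboxylate transporter Slc16a7 (log2 fold change -0.72 ± 0.11, adjusted p = 0.005) fell. The glucose transporter Slc2a3 rose (log2 fold change 0.74 ± 0.11, adjusted p = 0.0044). Of the 17 isozymes 2 were higher (11.8%) and 3 lower (17.6%), and without WT replicate 1 they were 6 and 3.

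Housekeeping lists had shares of calls close to or under those of all genes. Of 73 cytosolic ribosomal protein genes 6 were higher and 1 lower, of 77 nuclear-encoded respiratory chain genes 7 and 8, of 35 proteasome subunit genes 3 and 5, and of 63 splicing factor genes 6 and 6. Cox8c, the testis isoform of a cytochrome c oxidase subunit, was the gene with the highest log2 fold change among the called members of these 4 lists apart from the scarce Snrpf, at 315, 205 and 207 CPM in the WT libraries and 513, 712 and 469.5 CPM in the CTCF HET libraries (log2 fold change 1.22 ± 0.21, adjusted p = 0.0065). Uqcrb, of complex III, fell (log2 fold change -0.84 ± 0.18, adjusted p = 0.013), and the splicing factors Prpf8 (log2 fold change 0.78 ± 0.13, adjusted p = 0.0058) and Hnrnpc (log2 fold change -0.79 ± 0.13, adjusted p = 0.0052) moved in opposite directions. Without WT replicate 1 the ribosomal list held 24 higher and 9 lower genes, the respiratory chain list 26 and 13, the proteasome list 9 and 6 and the splicing list 14 and 11. Without WT replicate 2 or 3 none of the 4 lists had more than 1 higher and 2 lower. Among 17 stress genes none was lower and 2 were higher (11.8%), Jun among them (log2 fold change 0.99 ± 0.22, adjusted p = 0.015). Without WT replicate 1 this list held 6 higher and 2 lower genes. Among 21 genes of apoptosis and DNA damage 3 were higher (14.3%, against 9.51% of all genes) and 1 lower (4.76%, against 12.8%), at a median of -0.12. The higher genes were Bbc3 (log2 fold change 2.23, adjusted p = 0.027), Sesn2 (log2 fold change 1.26 ± 0.30, adjusted p = 0.02) and Bcl2l1 (log2 fold change 0.51 ± 0.14, adjusted p = 0.036). Bbc3 (1.69, adjusted p = 0.061) and Bcl2l1 (0.18, adjusted p = 0.19) were not called with the GC trend removed, where this list held 1 higher and 1 lower gene. In the list of 20 fatty acid and cholesterol genes 1 was higher (5%) and 3 lower (15%), and Cyp51, of sterol synthesis, fell (log2 fold change -0.83 ± 0.13, adjusted p = 0.0054). The counts were 4 and 3 of 21 without WT replicate 1.

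The study named 16 genes for these cells or for sites shared by CTCF and BORIS, a choice made on these samples and so no independent evidence of direction, and 3 of the 16 were called, 1 higher (6.25%) and 2 lower (12.5%), near or under the shares of all genes. Dhrs4 (chr14:56097595-56109175, plus strand), a retinol-metabolizing reductase with a CTCF peak of height 1114 and a BORIS peak at its promoter, measured 59, 58.1 and 61.4 CPM in the WT libraries and 32.1, 32.6 and 30.6 CPM in the CTCF HET libraries (log2 fold change -0.9 ± 0.10, adjusted p = 0.0024). Abca1, the cholesterol exporter, measured 2.04, 2.18 and 1.86 CPM in the WT libraries and 1.02, 1.32 and 0.995 CPM in the CTCF HET libraries (log2 fold change -0.86 ± 0.23, adjusted p = 0.028). Spns2, a sphingosine phosphate exporter, measured 0.169, 0.242 and 0.276 CPM in the WT libraries and 0.568, 0.726 and 0.518 CPM in the CTCF HET libraries (log2 fold change 1.42 ± 0.39, adjusted p = 0.033). The 3 genes did not overlap between the groups. The rise of Spns2 was not called with the GC trend removed (0.99, adjusted p = 0.11), and none of the list was higher in that fit, with a replicate block or with all 4 genotypes. None was higher either when any library but WT replicate 1 was left out. Kit, the stem cell factor receptor, measured 3.32, 4.6 and 5.1 CPM in the WT libraries and 3.18, 4.51 and 2.92 CPM in the CTCF HET libraries (log2 fold change -0.29 ± 0.23, adjusted p = 0.39), with overlap. Prss50 measured 0.643, 0.626 and 1.12 CPM in the WT libraries and 1.19, 1.93 and 1.2 CPM in the CTCF HET libraries (log2 fold change 0.86 ± 0.33, adjusted p = 0.091). Gal3st1 measured 0.0632, 0.182 and 0.147 CPM in the WT libraries and 0.375, 0.246 and 0.311 CPM in the CTCF HET libraries (log2 fold change 1.3 ± 0.55, adjusted p = 0.11), and neither was called.

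Genes were also grouped by the peaks at their promoters in WT testis germ cells. Among all genes tested 9.51% were called higher and 12.8% lower. With both CTCF and BORIS, 243 of 1994 genes tested were higher and 180 lower (median 0.10), with CTCF alone 319 and 238 of 2763 (0.09), with BORIS alone 60 and 62 of 592 (0.01), and with neither 805 and 1347 of 9292 (-0.04). With the GC trend removed the counts were 188 and 201, 253 and 257, 63 and 61, and 745 and 1177, at medians of 0.05, 0.06, 0.03 and 0.01. Genes without a peak had more lower than higher calls in both fits, while the lead of higher calls in the 2 classes with a CTCF peak was lost when the trend was removed. Among the CTCF and BORIS promoters, 124 of 1026 genes were higher and 98 lower where the CTCF peak overlapped one of CM testis, and 119 and 82 of 968 where it did not. In the fit without the GC trend the first counts turned to 90 higher and 125 lower, and the second stayed at more higher than lower, 98 and 76. With all 4 genotypes in 1 fit lower calls led in every class, at 8 higher and 24 lower with both proteins, 15 and 39 with CTCF alone, 3 and 8 with BORIS alone and 32 and 313 with neither. The same counts were 536 and 308, 692 and 417, 134 and 105, and 1790 and 2219 without WT replicate 1.

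The fold changes followed the GC content of the transcripts. Called higher genes had a median GC content of 55.3%, called lower genes of 45.4% and the rest of 49.9%. In 5 bins of equal gene number, from low to high GC, the median log2 fold change was -0.32, -0.14, 0.03, 0.22 and 0.45. The lowest bin held 26 higher and 703 lower genes and the highest 646 and 56. A fit with the trend on GC content removed from each library, over the 14065 genes with a GC value, called 2945 genes, 1249 higher and 1696 lower, of which 1951 were also called before. All 5 bins then had medians between 0.02 and 0.03. In CTCF HET spermatocytes the trend ran the other way, from 0.29 in the lowest bin to -0.63 in the highest.

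**Figure D4:**
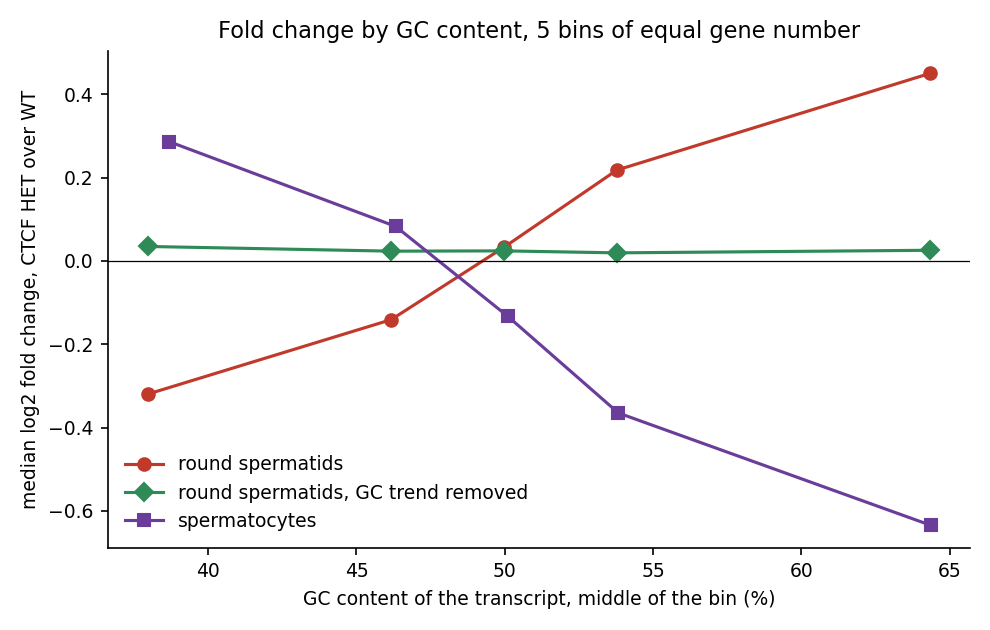
Median log2 fold change of CTCF HET over WT (vertical axis) in 5 bins of genes ordered by transcript GC content (horizontal axis, middle of each bin in percent), for round spermatids (red), round spermatids with the GC trend removed (green) and spermatocytes (purple). The round spermatid medians climb from -0.32 to 0.45, the spermatocyte medians drop from 0.29 to -0.63, and the green line stays flat.

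Sorted spermatocytes of CTCF HET mice gave a comparison on other libraries, 3 against 2 of WT, in which 2119 of 13648 genes (15.5%) were called, 924 higher and 1195 lower. Removing the GC trend turned the split, to 1462 higher and 113 lower of 12724 genes, at a median over all genes of 0.23. Genes called in round spermatids mostly had the opposite sign there. Of 1431 higher genes that were tested in spermatocytes 139 (9.71%) were above 0, with 574 called lower and 14 higher. Of 1688 lower genes 1437 (85.1%) were above 0, with 466 called higher and 10 lower. In total 1040 genes were called in both cell types in opposite directions and 24 in the same direction. In whole testis most had the same sign as in round spermatids. There 75.5% of 1430 higher genes and 24.6% of 1883 lower genes were above 0, against 50.8% of genes not called. Their medians were small, at 0.12 and -0.14. The genotype effect differed between the cell types, by an interaction term, in 5430 of 16152 genes (33.6%), 3714 with a higher and 1716 with a lower log2 fold change in round spermatids. That split depended on scaling, since the median difference over all genes was 0.33 with the trimmed mean of M values and -0.03 with relative log expression, where it was 2433 and 2841, and it turned to 1140 and 2520 of 14820 genes with the GC trend removed, at a median of -0.17. In that last setting, 43.9% of 1235 higher genes and 88.9% of 1526 lower genes were above 0 in spermatocytes, against 67.3% of genes not called.

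Spermatid genes showed the contrast by name. Round spermatid markers had a median of -0.52 in round spermatids and 1.37 in spermatocytes, where 5 of 16 were higher and none lower. Cabyr had a log2 fold change of 1.86 ± 0.36, adjusted p = 0.016 in spermatocytes (difference between cell types -2.94, adjusted p = 0.0012). For Lrrc34 the spermatocyte value was 0.98 ± 0.10, adjusted p = 0.0039 (difference -1.72, adjusted p = 0.0015), and for Smcp 2.64 ± 0.51, adjusted p = 0.017 (difference -3.88, adjusted p = 0.0018). All 3 remained higher in spermatocytes with the GC trend removed, where the median of the round spermatid markers was 1.91 with 6 of 16 higher. The study put the purity of its sorted spermatocytes at 81.5 ± 3.7%, and the part of round spermatids among them in these values was not tested. In whole testis none of these genes was called, and the median of the round spermatid markers was 0.07.

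**Figure D5:**
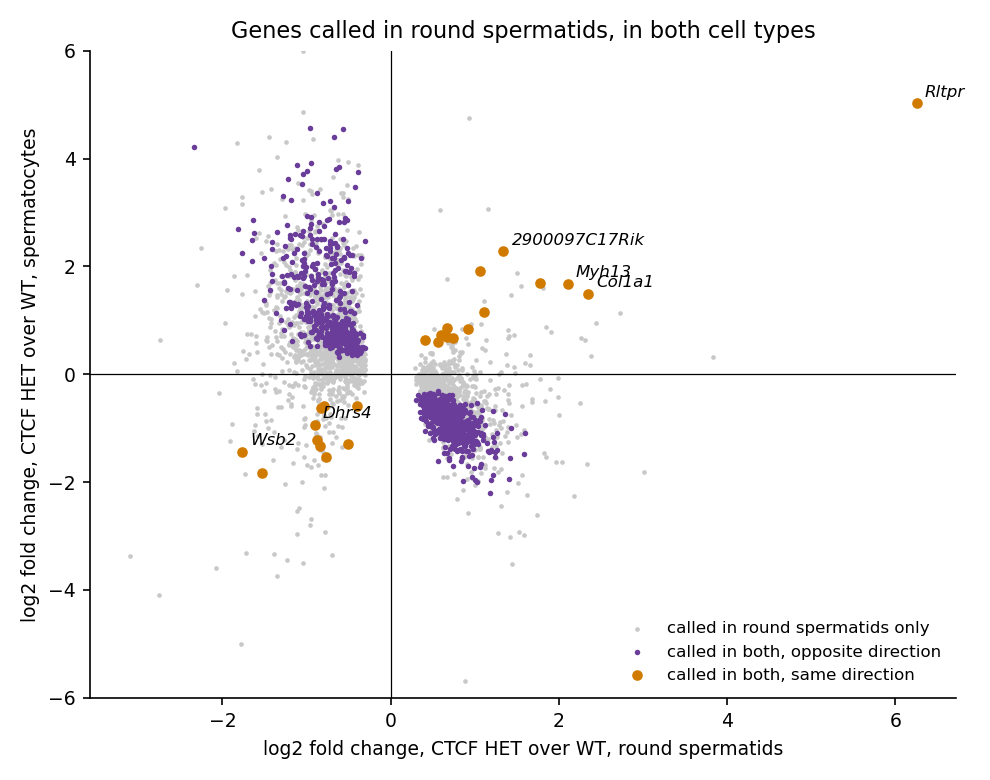
Log2 fold change of CTCF HET over WT in spermatocytes (vertical axis) against that in round spermatids (horizontal axis) for the 3119 genes called in round spermatids and tested in both cell types, of which 15 lie beyond the vertical range of 6. The 1040 genes called in opposite directions (purple) fill the upper left and lower right, and the 24 called in the same direction (orange) include Rltpr at the upper right.

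The 24 genes called in the same direction in both cell types, singled out after their values were seen, were 14 higher and 10 lower. Besides Rltpr, the widest rises in round spermatids were those of Col1a1 and Myh13. Col1a1, a fibrillar collagen whose promoter site is printed above, measured 3.86, 1.01 and 0.699 CPM in the WT libraries and 8.82, 10.9 and 9.56 CPM in the CTCF HET libraries (log2 fold change 2.34 ± 0.52, adjusted p = 0.017) in round spermatids and 4.06 and 3.79 CPM in WT and 12.5, 13 and 7.46 CPM in CTCF HET spermatocytes (1.5 ± 0.32, adjusted p = 0.023). The round spermatid value of Col1a1 was 3.52 without WT replicate 1. Myh13 measured 1.92 and 1.96 CPM and 5.96, 6.17 and 6.37 CPM in spermatocytes (1.68 ± 0.32, adjusted p = 0.016). The genotypes did not overlap in either cell type for either gene.

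Atp8b4, a lipid flippase, measured 10.0, 8.35 and 8.5 CPM in the WT libraries and 19.5, 18.1 and 20.7 CPM in the CTCF HET libraries (log2 fold change 1.11 ± 0.13, adjusted p = 0.0024) and in spermatocytes 24.9 and 23.7 CPM in WT and 48.1, 48.5 and 64.3 CPM in CTCF HET (1.16 ± 0.17, adjusted p = 0.0079). Slc7a2 measured 8.74 and 8.03 CPM and 21.5, 20.6 and 38.3 CPM there (1.69 ± 0.31, adjusted p = 0.014). Bcas1 (0.91 and 0.85), Plce1 (0.75 and 0.67), a phospholipase C, and Mme (1.06 and 1.92), the peptidase neprilysin, rose in both, where the first value is the log2 fold change in round spermatids and the second that in spermatocytes. The other higher genes were 2900097C17Rik, 4930556C24Rik, Gins1, Tex264, A1cf and Trhde, of which Tex264 and 2900097C17Rik were not called in round spermatids with the GC trend removed (-0.16, adjusted p = 0.43 and 0.50, adjusted p = 0.17), and Trhde not in spermatocytes (0.59, adjusted p = 0.07).

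Dhrs4 was among the lower genes, with 34.7 and 35.4 CPM in WT and 16.1, 20.1 and 18.3 CPM in CTCF HET spermatocytes (-0.93 ± 0.16, adjusted p = 0.011) and a log2 fold change of -1.15 ± 0.27 in whole testis, where it was not called. Wsb2 measured 7.92 and 8.55 CPM and 3.94, 2.43 and 2.67 CPM in spermatocytes (-1.44 ± 0.33, adjusted p = 0.029). Det1, a ubiquitin ligase component with a promoter site printed above, measured 7.78, 6.4 and 5.41 CPM in the WT libraries and 3.42, 3.91 and 3.32 CPM in the CTCF HET libraries (log2 fold change -0.88 ± 0.18, adjusted p = 0.013) in round spermatids and 7.72 and 7.84 CPM and 4.19, 3.24 and 2.5 CPM in spermatocytes (-1.22 ± 0.33, adjusted p = 0.048). The 3 genes were lower in every CTCF HET library of both cell types. Col2a1, a cartilage collagen, had log2 fold changes of -0.84 and -1.33, and Lama2, a laminin chain, of -0.83 and -0.62. Lower in both were also 2010011I20Rik, 4933412E12Rik, Mrps2, Scgb2b1-ps and BB557941. The falls in spermatocytes were not called with the GC trend removed for Dhrs4 (-0.26, adjusted p = 0.44), Wsb2 (-0.74, adjusted p = 0.22), Det1 (-0.56, adjusted p = 0.39), Col2a1 (-0.10, adjusted p = 0.88), Lama2 (-0.42, adjusted p = 0.17) and 2010011I20Rik (-1.49, adjusted p = 0.081).

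The CM and BORIS KO round spermatids were compared with the same 3 WT libraries, so their values are given side by side only. Dhrs4 had a log2 fold change of -0.9 ± 0.10 in CTCF HET, -1.31 ± 0.24 in CM and -0.23 ± 0.10 in BORIS KO. For Wsb2 the values were -1.77 ± 0.17, -1.93 ± 0.52 and 0.15 ± 0.20, and for Myh13 2.1 ± 0.19, -0.16 ± 1.38 and -0.91 ± 0.30, in the same order. Cabyr had log2 fold changes of -1.19 ± 0.12, -1.09 ± 0.17 and -1.39 ± 0.13, and Gata6 -2.04 ± 0.14, -1.84 ± 0.27 and -2.45 ± 0.15. In CM round spermatids 1 gene of 15298 was called and in BORIS KO 8658 of 15513, so the sizes are set beside one another without a test of their difference. The SE was widest in CM for each of these genes. By edgeR without adjustment, 3136 genes passed a p of 0.05 in CM and 9418 in BORIS KO. The study, by DESeq2 at its own thresholds, found many more genes changed in CM round spermatids. The 1 call here is thus no measure of how little CM cells changed.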

How the data were processed

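The series measured gene expression by RNA-seq and CTCF and BORIS binding by ChIP-seq in mouse male germ cells, and this account uses the 6 round spermatid libraries of CTCF HET and WT mice. The authors deposited raw counts per gene symbol, made from poly(A) reads aligned to mm9 with STAR, while the counting tool, gene annotation and use of strand are not given in the sources used here, so reads of overlapping or antisense genes cannot be told apart. The submitters' processing notes also name TopHat2, Bowtie, Bowtie2, Cufflinks 2.0.0 and DESeq2 for the series. For ChIP-seq the authors deposited 1 list of peaks per antibody and genotype with the height of each peak as a signal whose normalization and depth are not stated, and how replicates were combined is not stated either.

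Samples were grouped by title. Counts were tested with edgeR 4.0.16 (quasi-likelihood F test, R 4.3.3) on the 6 libraries with TMM scaling, after a filter on low counts (filterByExpr, minimum count 10), and p-values were adjusted by the Benjamini-Hochberg method over all genes tested. A call is an adjusted p of 0.05. CPM are scaled by TMM, and errors are SE of the fitted log2 fold change. With 3 libraries against 3 an exact permutation test of 1 gene cannot go below p = 0.1, so none was used. Spermatocytes (3 CTCF HET, 2 WT), whole testis (3 against 3, another table and library type) and the other genotypes were fitted separately, and the interaction of genotype and cell type was fitted over both cell types. Gene symbols were matched to GENCODE vM1 of mm9 (21897 of 23284 genes, 20277 with a GC content). The scripts were tested on simulated data.

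Named genes were Ctcf, Ctcfl and genes within 250 kb of Ctcf, the genes the study named, the 20 with the smallest p in each direction, every called member of each list with up to 4 members by smallest p and by CPM, and the 5 called genes with the highest CPM in each direction. The 24 genes called alike in both cell types were singled out after their values were seen. Members and lists were chosen with earlier results of these data known. Same-numbered WT and CTCF HET libraries did not deviate together (residual correlations of -0.006, -0.248 and 0.253), so the numbers were not taken as pairs. Alternatives were relative log expression scaling, DESeq2 1.42.0, no filter, all 4 genotypes in 1 fit, a replicate block, removal of the GC trend by loess on each library, and leaving out each library. Removing the GC trend from the spermatocytes and from the interaction was added after the data were seen. H3K4me3 and Pol2 peaks were not used here.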

Additional observations from a re-analysis of the deposited data

Results flagged for a closer look

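Of the 40 genes with the smallest p in round spermatids, 29 had a genotype effect that differed between round spermatids and spermatocytes by edgeR's interaction term (adjusted p of 0.05), against 33.6% of all genes. The 40 were chosen on the round spermatid values that enter the difference, so this count is a description. For 12 of them the effect was called in both cell types with opposite signs. Values are the log2 fold change in round spermatids minus that in spermatocytes. Among genes lower in CTCF HET round spermatids the difference was -3.75 for Il31, -3.55 for Aldoart1, -4.14 for 1700007P06Rik, -2.94 for Cabyr, -1.64 for Habp4 and -3.16 for 4922501L14Rik. Habp4, a hyaluronan-binding protein, measured 88.7, 87.7 and 86.5 CPM in the WT libraries and 47.5, 42.6 and 45.7 CPM in the CTCF HET libraries. For genes higher in CTCF HET round spermatids it was 2.8 for Psca, 1.86 for 2610301G19Rik, 2.21 for Trrap, 2.01 for Mgll, 3.16 for Dolpp1 and 2.72 for Fbrs. Fbrs, the fibrosin gene, measured 11.9, 10.8 and 10.3 CPM in the WT libraries and 23.6, 19.4 and 19.5 CPM in the CTCF HET libraries, and its log2 fold change in spermatocytes was -1.7 ± 0.17, adjusted p = 0.0042. The median difference over all genes was 0.33 with the trimmed mean of M values and -0.03 with relative log expression, and the 12 kept their sign and call with both. With the GC trend removed, all 11 of them with a GC value kept the sign and the call of the difference, but 6 (Il31, Aldoart1, Cabyr, Habp4, 4922501L14Rik and Fbrs) were still called in both cell types with opposite signs. The 5 others, Psca, 2610301G19Rik, Trrap, Mgll and Dolpp1, were not called in spermatocytes there, with log2 fold changes of -0.67 to -0.04.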

How the results depend on the processing

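The count of 3405 calls was 3421 with relative log expression, 4475 with DESeq2, 3376 without the filter and 2945 with the GC trend removed, but 480 with all 4 genotypes in 1 fit, and 929 to 6516 when 1 library was left out. Without WT replicate 1 it was 6516, without WT replicates 2 and 3 it was 934 and 929, and without CTCF HET replicates 1, 2 and 3 it was 961, 1316 and 1995. The share of calls that were higher was 42.6% as reported, 12.1% with all 4 genotypes, 49.2% without WT replicate 1 and 17.5 to 35.5% without any other library. At an adjusted p of 0.001 and 2-fold the 1 call was 533 with DESeq2, 146 without the filter, 92 with the GC trend removed and 1 to 813 when a library was left out, the highest without WT replicate 1. With a replicate block 2705 genes were called, 2570 of them shared with the fit without it, Rltpr was at 6.27 and Ctcf at -0.43, and neither changed its call. With the GC trend removed 15 of 197 named genes with a value changed sign, 11 of them called in neither fit and 4 called in one of them, to -0.32 for Acd, -0.19 for Ybx2, -0.16 for Tex264 and 0.013 for Hormad1. Over 205 named genes and all alternatives, 1915 of 2450 values counted as unchanged, 521 lost the call and 2 gained it. Unchanged values kept their side of the threshold, and their direction unless called in neither fit and within 1 SE of the main value. Of the rest, 4 changed sign with a call in either fit, and 8 changed sign by more than 1 SE without one. Calls were lost in 122 of the 205 with all 4 genotypes, in 81 and 79 without WT replicates 2 and 3, and in 74, 58 and 41 without CTCF HET replicates 1, 2 and 3. The cause of these changes was not tested. With 3 libraries a genotype and 1 WT library apart from the others, the calls rest on few pools, and depth limits the scarce somatic markers, of which the defining Sertoli cell genes had 0 to 12 counts.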
